A study of Mus musculus with 6 samples.

Results

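Rab GTPases are the small proteins that give each membrane compartment of a cell its identity. A Rab protein carries a lipid tail added by the geranylgeranyl transferase, is loaded with GTP by an exchange factor at its target membrane, recruits effectors such as tethers and motor adaptors, and is switched off by a GTPase-activating protein before GDI extracts it from the membrane. In phagocytes, Rab5 proteins mark early endosomes and young phagosomes, Rab7 replaces them as these mature towards lysosomes, Rab4 and Rab11 proteins return receptors to the surface, and Rab1, Rab2 and Rab6 proteins serve traffic between the endoplasmic reticulum and the Golgi apparatus. The genes described here were all protein-coding rows whose symbol is Rab followed by digits and at most 1 letter and 1 further digit, which gave 53 of the 19225 genes listed in the deposited values. They were sorted into 6 groups by the compartment their proteins are known for: 14 of the ER-Golgi, 7 of the early endosome, 8 of recycling, 6 of the late endosome, 11 of secretion, and 7 placed elsewhere or not placed.

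The RNA came from CD11b+ cells, which in brain are mainly microglia, isolated with magnetic beads from the perfused, mechanically dissociated brains of 6 unstressed male mice, each giving 1 library. The control group held 3 mice of the strain C57BL6/J with the genotype wt/wt, here *Cnr1*+/+. The other group held 3 mice of the strain Cnr1 tm1Zim with the genotype d/d, here *Cnr1*-/-, in which the gene of the cannabinoid receptor CB1 is inactivated in every cell of the animal from conception, so a difference between the groups need not arise in the sorted cells themselves. The labels give an age of 3 months for all 6 mice, while the study's methods give a younger age, and the methods describe littermates. The paper compared these groups to explore how CB1 signalling is linked to the way microglia respond to stress.

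*Cnr1* itself (mm10 chr4:33924593-33948831) was listed at 0 in all 3 *Cnr1*+/+ libraries and at 1.41, 1.21 and 1.79 cpm in the 3 libraries labelled *Cnr1*-/-, which goes against the labels. The methods describe an allele whose coding part is interrupted by a neomycin cassette, and where the 3′-end reads of *Cnr1* lie relative to it was not analysed here. The groups are named below by their labels, and no direction has an independent check. The value of 1 read implied library sizes of 7708812 to 10723824 reads after the authors' TMM scaling, which are not counts of reads sequenced. A value of 0 allows a level of up to 0.280 to 0.389 cpm by counting error alone. *Cnr1*+/+ replicate 1 had the smallest of these sizes. All 10 microglial markers were listed, and their summed level was between 14349 and 16570 cpm in every library, whereas the 8 neuronal markers summed to between 31.7 and 37.4 cpm. *Cnr1*-/- replicate 2 stood apart, with 3997 cpm of the 9 listed neutrophil markers against 262 to 516 cpm in the other libraries and 2342 cpm of the 7 erythrocyte markers against 136 to 237 cpm. Oligodendrocyte markers summed to 420 to 853 cpm and astrocyte markers to 248 to 451 cpm, with overlap between the groups in both. In bulk RNA such as this, fewer cells of a type and less RNA per cell cannot be told apart.

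The levels of the Rab genes formed a steep and reproducible ladder. *Rab14*, whose protein moves membrane between the Golgi apparatus, endosomes and the cell surface, was the most abundant Rab gene in all 6 libraries, and *Rab10*, which serves exocytosis and endosomal recycling, was the next in all 6. *Rab14* was measured at 231, 251 and 273 cpm in the *Cnr1*+/+ libraries and at 265, 302 and 285 cpm in those labelled *Cnr1*-/-. *Rab10* was measured at 98.1, 107 and 105 cpm and at 108, 117 and 101 cpm, so that *Rab14* was 2.36-fold to 2.81-fold higher within each library. These libraries read the 3′ end of transcripts, about 1 read for each, and the values are not divided by transcript length, so an order of genes is an order of 3′ ends counted.

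Below these 2 genes, 7 had a mean over the 6 libraries of 50 to 100 cpm: *Rab1a*, *Rab24*, *Rab5c*, *Rab6a*, *Rab7*, *Rab2a* and *Rab11b*. The ranges over the 6 libraries overlapped for every neighbouring pair in this order, so it is not fixed within these 7. A further 16 genes had a mean of 20 to 50 cpm, 3 of 10 to 20 cpm and 16 of 1 to 10 cpm. The remaining 9 had a mean of less than 1 cpm and were *Rab37*, *Rab19*, *Rab27b*, *Rab44*, *Rab36*, *Rab40b*, *Rab26*, *Rab39b* and *Rab33a*, from 0.728 cpm down to 0.185 cpm. Each main step of the pathway thus had a well measured member, namely *Rab1a* and *Rab2a* for the ER-Golgi, *Rab5c* for the early endosome, *Rab14* and *Rab11b* for recycling and *Rab7* for the late endosome. In all, 45 of the 53 genes were above 0 in every library, 8 were at 0 in at least 1 library, and none was at 0 throughout a group. A mean of 10 cpm or more admitted 28 genes to the test, the lowest being *Rab39* at 12.9 cpm, and the 25 below this minimum began with *Rab34* at 9.33 cpm.

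**Figure D1:**
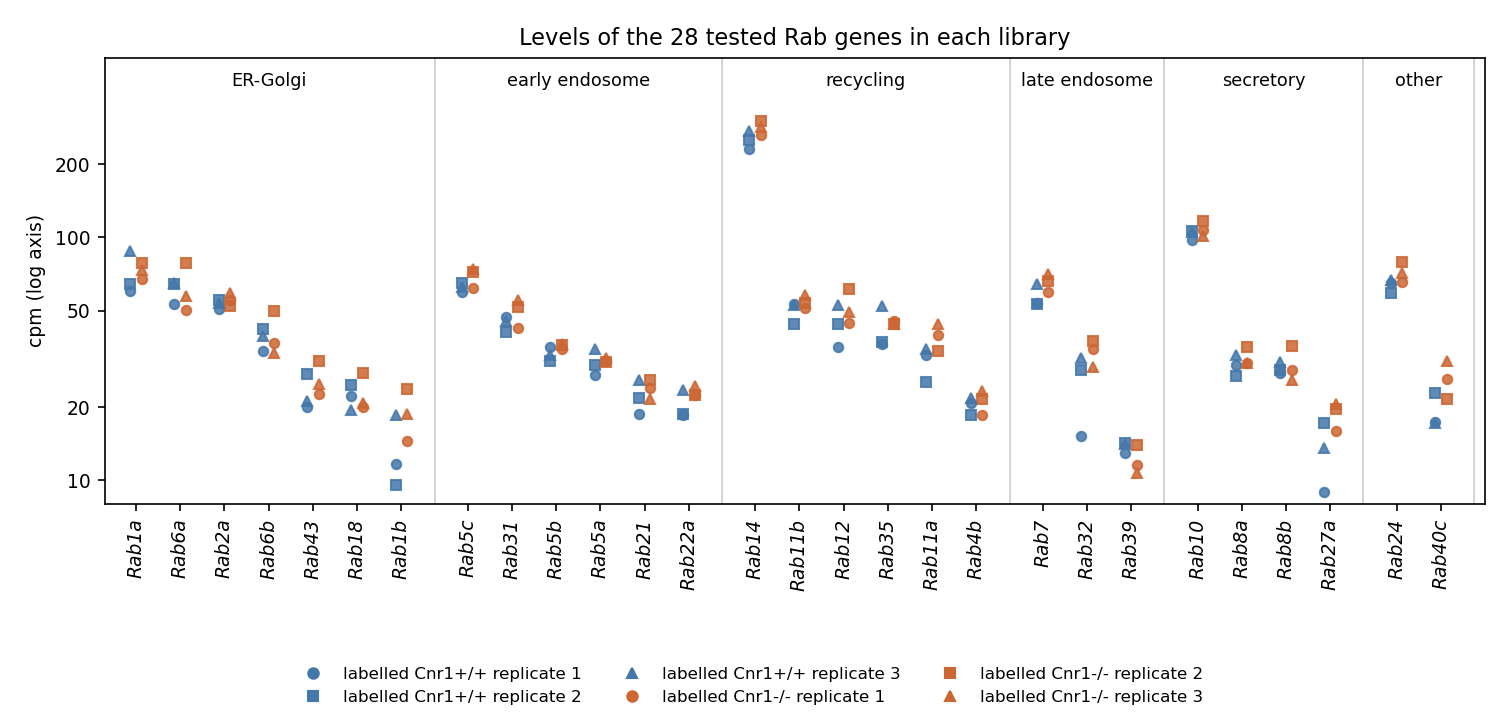
Level in cpm (log axis) of each of the 28 tested Rab genes in each library, sorted by compartment group and within it by mean level; blue points are the *Cnr1*+/+ libraries, orange points those labelled *Cnr1*-/-, and the symbol gives the replicate. *Rab14* lies between 231 and 302 cpm, above every other gene, and the groups overlap for all 28 genes.

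The summed level of all 53 genes was 1291, 1369 and 1490 cpm in the *Cnr1*+/+ libraries and 1415, 1623 and 1506 cpm in those labelled *Cnr1*-/-. The division of this sum among compartments hardly varied. Recycling genes took 31.0% to 33.8% of it, ER-Golgi genes 21.3% to 24.0%, early endosome genes 15.1% to 16.6%, secretory genes 12.7% to 14.4%, late endosome genes 6.97% to 8.38% and the remaining 7 genes 6.69% to 7.67%. *Rab14* alone made up 17.9% to 18.9% of the Rab total. Its share was higher by 0.55 percentage points in the libraries labelled *Cnr1*-/-, with no overlap between the groups (p = 0.1 in a two-sided exact permutation test, which cannot go lower with 3 libraries a side).

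**Figure D2:**
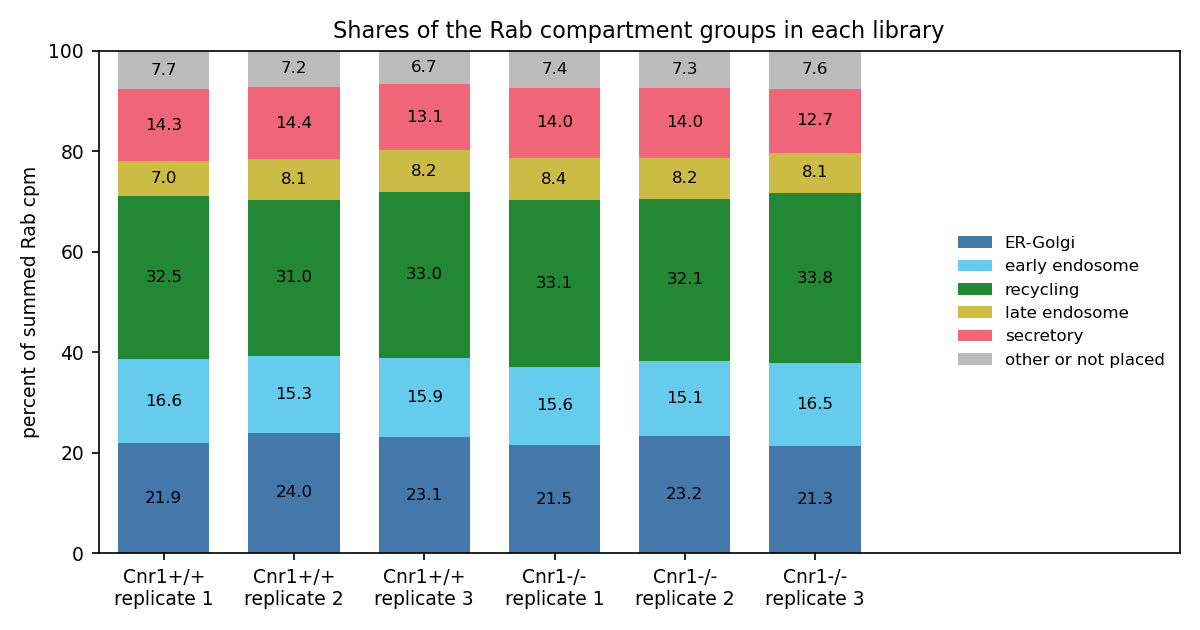
Percent of the summed cpm of the 53 Rab genes that falls to each compartment group, stacked for each of the 6 libraries. The recycling group is the tallest segment in every library, at 31.0% to 33.8%, and the late endosome group ranges from 6.97% to 8.38%.

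Replicates agreed closely for these genes. The median coefficient of variation between mice of 1 group was 11.9% for the 28 tested Rab genes, against 14.8% for all 6659 genes tested, and the part that counting reads would give had a median of 5.58% for the Rab genes. The spread was smallest for *Rab5b* (4.75%), an early endosome gene, and largest for *Rab1b* (28.8%), an ER-Golgi gene at a low level.

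The comparison of the genotype labels gave small differences. A limma model on log2(cpm + 0.1) was fitted to the 6659 genes that averaged 10 cpm or more, and no Rab gene reached the threshold of the study, an adjusted p below 0.1 with a fold change over 1.5, which 6 genes or 0.0901% of all those tested reached. The adjusted p of the 28 Rab genes ranged from 0.809 to 0.995. At a nominal p below 0.05, 4 of the 28 (14.3%) were called, *Rab32*, *Rab40c*, *Rab27a* and *Rab1b*, against 6.02% of all genes tested. All 4 were higher in the libraries labelled *Cnr1*-/-, the direction of 5.09% of all genes tested, and none was lower, against 0.931%. With libraries centred on their medians or quantile normalised, 0 of the 28 had a nominal p below 0.05 in limma, while 375 and 360 of all genes tested did. The 2 groups overlapped for each of the 28 genes. Over all 53, tested or not, they did not overlap for 2 genes, against 10.1% of all 19225 listed genes.

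Most Rab genes shared a slight shift in 1 direction that depended on how the libraries were scaled. With the authors' scaling, 27 of the 28 log2 fold changes were above 0 (96.4%, against 68.4% of all genes tested), with a median of 0.12 against 0.08 for all genes tested. When each library was centred on its own median, 18 of the 28 were above 0, with a Rab median of 0.04 and a median of all genes of 0.01, and quantile normalisation also gave 18 of 28. Since centring lowers every log2 fold change by the same amount, the sign of the smallest ones, such as those of *Rab1a*, *Rab2a*, *Rab6a*, *Rab8b* and *Rab10*, depends on the scaling. *Cnr1*+/+ replicate 1 held the lowest of the 6 values for 13 of the 28 genes. *Cnr1*-/- replicates 2 and 3 held the highest for 12 and 11, and such counts were not made for all genes tested. The share of each library's scaled total taken by listed genes moved in the same way, being lowest in *Cnr1*+/+ replicate 1 (50.1%) and highest in *Cnr1*-/- replicates 2 (59.1%) and 3 (58.1%), and its part in the shift was not tested. For 20 of the 28 genes (71.4%, against 56.4% of all genes tested) the 95% interval of the fold change lay wholly inside 1.5-fold in either direction, so that for these a larger difference between the labels is outside the interval.

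**Figure D3:**
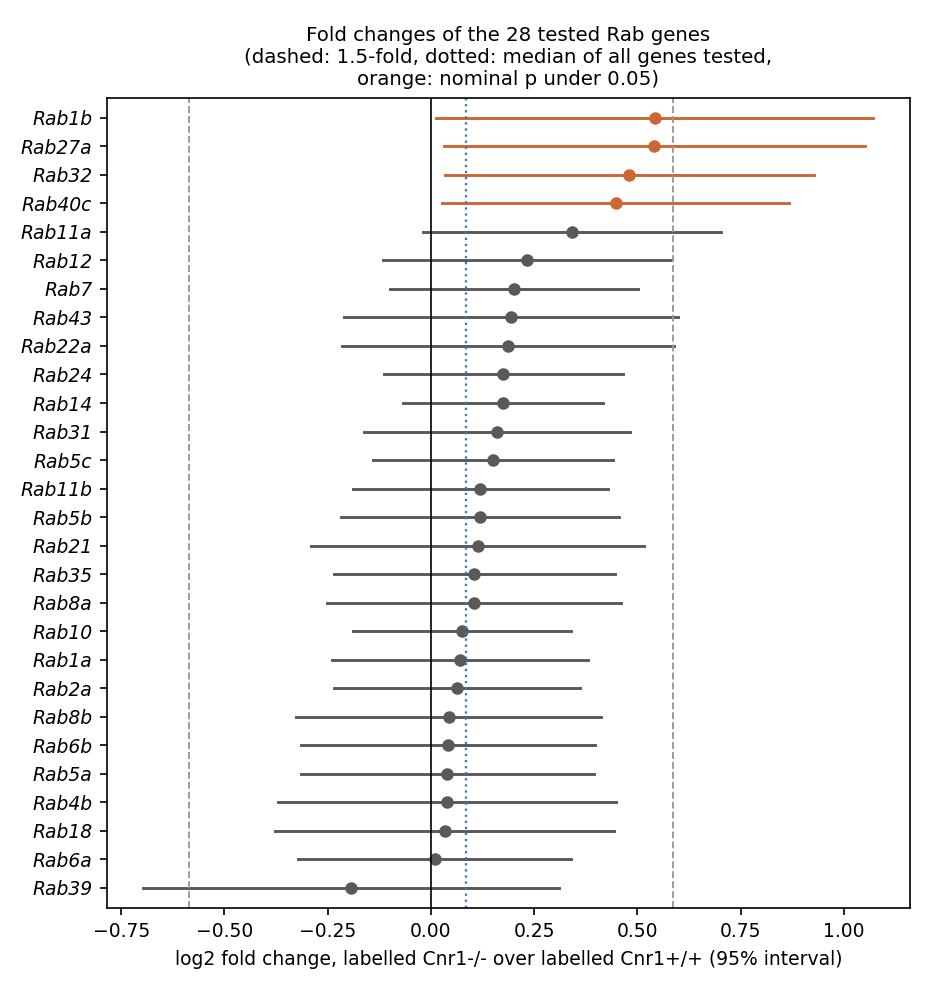
Log2 fold change (libraries labelled *Cnr1*-/- over *Cnr1*+/+) of the 28 tested Rab genes, with the 95% interval from limma as a line; dashed lines mark 1.5-fold, the dotted line the median of all genes tested (0.08), and orange marks a nominal p below 0.05. The lower ends of the 4 orange intervals lie just above 0 and their upper ends past 1.5-fold, and *Rab39* is the only gene with a fold change below 0.

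Among the ER-Golgi genes, the 7 tested had a median log2 fold change of 0.06 (-0.0125 with centring and -0.0286 with quantile normalisation). *Rab1a*, which drives vesicles from the endoplasmic reticulum to the Golgi apparatus, was at 60.2, 64.3 and 87.6 cpm in the *Cnr1*+/+ libraries and at 67.7, 78.6 and 73.8 cpm in those labelled *Cnr1*-/-. Both ends of its range lay in the control group, and the log2 fold change was 0.07 (SE 0.15). *Rab2a*, needed for the same transport step, was at 50.6, 55.2 and 53.7 cpm against 55.4, 52.3 and 59.0 cpm, with a log2 fold change of 0.06 (SE 0.15). *Rab6a*, which acts in retrograde traffic to and within the Golgi apparatus, was at 53.4, 64.1 and 65.2 cpm against 50.4, 78.2 and 57.6 cpm, with the lowest and the highest value both among the libraries labelled *Cnr1*-/-.

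*Rab1b*, the less abundant partner of *Rab1a*, was the only tested gene of this group with a nominal p below 0.05. It was at 11.7, 9.58 and 18.5 cpm in the *Cnr1*+/+ libraries and at 14.5, 23.7 and 18.7 cpm in those labelled *Cnr1*-/-. Replicate 3 of the controls reached the level of replicate 3 of the other group, and the highest value came from *Cnr1*-/- replicate 2. The log2 fold change was 0.54 (95% interval 0.01 to 1.07, limma nominal p = 0.0454, adjusted p = 0.821, two-sided exact permutation p = 0.2). Without *Cnr1*-/- replicate 2, the library rich in neutrophil and erythrocyte markers, it was 0.37 and no longer called, and without *Cnr1*+/+ replicate 2 it was 0.34, likewise not called. The call was also lost without *Cnr1*+/+ replicate 1 (0.48) or *Cnr1*-/- replicate 3 (0.54) and without a trend. *Cnr1*-/- replicate 2 also held the highest value of *Rab6a*, of its relative *Rab6b* (49.7 cpm against 33.5 to 41.9 cpm in the other libraries), of *Rab18*, known from lipid droplets (27.7 cpm against 19.6 to 24.7 cpm), and of *Rab43*, known from Golgi traffic (31.1 cpm against 20.1 to 27.3 cpm), so that 5 of the 7 tested ER-Golgi genes, like 3 of the 4 tested secretory ones, peaked in the library with the most neutrophil and erythrocyte marker RNA. Of all 28 tested Rab genes 12 peaked there, and listed genes took their highest share of the scaled total in that library (59.1%). How many of all genes tested peaked there was not counted. The part of those cells in these values was not tested.

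The 6 tested genes of the early endosome were the most even set, with a median within-group coefficient of variation of 9.35% and no gene called. *Rab5c*, 1 of the 3 Rab5 genes that govern fusion of early endosomes, was at 59.8, 64.7 and 62.3 cpm against 61.9, 71.9 and 74.1 cpm, and its log2 fold change was 0.15 (SE 0.14). *Rab31*, which works between the trans-Golgi network and endosomes, was at 47.1, 40.7 and 45.4 cpm against 42.4, 51.9 and 55.1 cpm, a log2 fold change of 0.16 (SE 0.16). *Rab5b* was at 35.3, 31.1 and 32.7 cpm against 34.8, 36.2 and 36.6 cpm, so that its whole range over 6 mice was 31.1 to 36.6 cpm. All log2 fold changes of the 6 genes lay between 0.04 and 0.19, and the intervals of 5 stayed within 1.5-fold. *Rab5a* lay between 27.2 and 34.7 cpm over the 6 libraries, *Rab21*, known from integrin uptake, between 18.8 and 25.9 cpm, and *Rab22a* between 18.7 and 24.4 cpm.

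None of the 6 tested recycling genes was called, and their median log2 fold change was 0.15 (0.07 with centring and 0.05 with quantile normalisation). *Rab14* was 252 ± 21.2 cpm in the *Cnr1*+/+ group and 284 ± 18.3 cpm in the group labelled *Cnr1*-/- (SD, n = 3 each), a 1.13-fold difference with a 95% interval of 0.954-fold to 1.33-fold. With about 2495 reads of *Rab14* per library on average, counting would give a coefficient of variation of 2.00%, and the one observed between mice was 7.39%. *Rab11b* and *Rab11a* encode the closely related proteins of the recycling endosome. *Rab11b* was at 53.4, 44.2 and 52.7 cpm against 51.2, 53.7 and 58.1 cpm, a log2 fold change of 0.12 (SE 0.15). *Rab11a* was at 32.8, 25.5 and 34.6 cpm against 39.7, 33.9 and 43.9 cpm. Its groups overlapped only through *Cnr1*+/+ replicate 3 and *Cnr1*-/- replicate 2, and its log2 fold change of 0.34 was the fifth largest of the 28 in absolute size (95% interval -0.02 to 0.70, limma nominal p = 0.0618, adjusted p = 0.829, two-sided exact permutation p = 0.2). With 1 library left out, the log2 fold change of *Rab11a* ranged from 0.21 without *Cnr1*+/+ replicate 2 to 0.44 without *Cnr1*-/- replicate 2, and its nominal p was below 0.05 in the latter case and without *Cnr1*+/+ replicates 1 or 3. *Rab12*, linked to the degradation of recycling receptors, was at 35.5, 44.2 and 52.8 cpm against 44.6, 61.5 and 49.1 cpm, with 1 control library inside the range of the other group and a log2 fold change of 0.23 (SE 0.17). *Rab35*, which serves fast recycling, was even among the libraries labelled *Cnr1*-/- (44.1 to 45.4 cpm) and spread from 36.6 to 52.3 cpm among the controls, and *Rab4b* lay between 18.5 and 23.3 cpm.

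The late endosome group held 3 tested genes. *Rab7*, the regulator of fusion with lysosomes, was at 53.6, 53.2 and 64.2 cpm in the *Cnr1*+/+ libraries and at 59.5, 65.9 and 70.7 cpm in those labelled *Cnr1*-/-. A single control library lay above the lowest of the other group, and the log2 fold change was 0.20 (SE 0.15, limma adjusted p = 0.900). *Rab39*, the only tested gene whose fold change was below 0, was at 12.97, 14.3 and 14.1 cpm against 11.6, 13.99 and 10.7 cpm, a log2 fold change of -0.19 (SE 0.25).

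*Rab32*, which serves lysosome-related organelles and is switched on by a complex of *Hps1* and *Hps4*, had the smallest nominal p of all Rab genes. It was at 15.3, 28.4 and 31.9 cpm in the *Cnr1*+/+ libraries and at 34.6, 37.4 and 29.2 cpm in those labelled *Cnr1*-/-. Replicate 1 of the controls was far below the other 5 libraries, which spanned 28.4 to 37.4 cpm, and control replicate 3 lay above the lowest library of the other group. The log2 fold change was 0.48 (95% interval 0.03 to 0.93, limma nominal p = 0.0362, adjusted p = 0.809, two-sided exact permutation p = 0.2). Without *Cnr1*+/+ replicate 1, the library with the smallest scaled size, it was 0.16. The call was lost without that library, without *Cnr1*-/- replicate 1 (0.46) or 2 (0.40), and with centring, quantile normalisation or no trend.

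Of the 4 tested secretory genes, *Rab10* had a log2 fold change of 0.07 (SE 0.13). *Rab8a* and *Rab8b*, close relatives of *Rab10* in exocytic transport, had log2 fold changes of 0.10 (SE 0.17) and 0.04 (SE 0.18). *Rab8a* was at 30.0, 27.0 and 32.9 cpm against 30.5, 35.5 and 30.5 cpm. *Rab8b* was at 27.8, 28.5 and 30.8 cpm against 28.6, 35.9 and 25.9 cpm.

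*Rab27a*, which docks secretory granules and lysosome-related organelles at the plasma membrane and is also used by neutrophils, was called at the nominal threshold. It was at 8.95, 17.2 and 13.6 cpm in the *Cnr1*+/+ libraries and at 15.9, 19.7 and 20.6 cpm in those labelled *Cnr1*-/-. Control replicate 2 lay above the lowest library of the other group, and control replicate 1 was again the lowest of all. The log2 fold change was 0.54 (95% interval 0.03 to 1.05, limma nominal p = 0.0386, adjusted p = 0.809, two-sided exact permutation p = 0.2). It was 0.50 without the neutrophil-rich *Cnr1*-/- replicate 2 and 0.29 without *Cnr1*+/+ replicate 1, and was called in neither case, nor without *Cnr1*-/- replicate 3 (0.47) or with voom weights.

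Outside these compartments, *Rab24*, linked to autophagy, was at 64.9, 59.3 and 66.8 cpm against 65.6, 79.0 and 71.3 cpm, and its log2 fold change was 0.17 (SE 0.14). *Rab40c*, an unusual Rab protein with a SOCS box that recruits a ubiquitin ligase, was at 17.4, 22.8 and 17.2 cpm against 26.1, 21.5 and 31.0 cpm. Control replicate 2 exceeded *Cnr1*-/- replicate 2, and the other libraries kept apart by label. Its log2 fold change was 0.45 (95% interval 0.03 to 0.87, limma nominal p = 0.0377, adjusted p = 0.809, two-sided exact permutation p = 0.2). Without *Cnr1*-/- replicate 3 it was 0.32, and the call was lost on leaving out that library, *Cnr1*-/- replicate 1 or *Cnr1*+/+ replicates 1 or 3, each alone, and with voom weights. The span of *Rab40c* overlaps that of *Gm10012* on the opposite strand, which was listed at a mean of 36.6 cpm, and none of its last 500 bases shared a stretch of 50 bases with another gene. *Rab28*, just 6.71 cpm on average, was not tested.

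**Figure D4:**
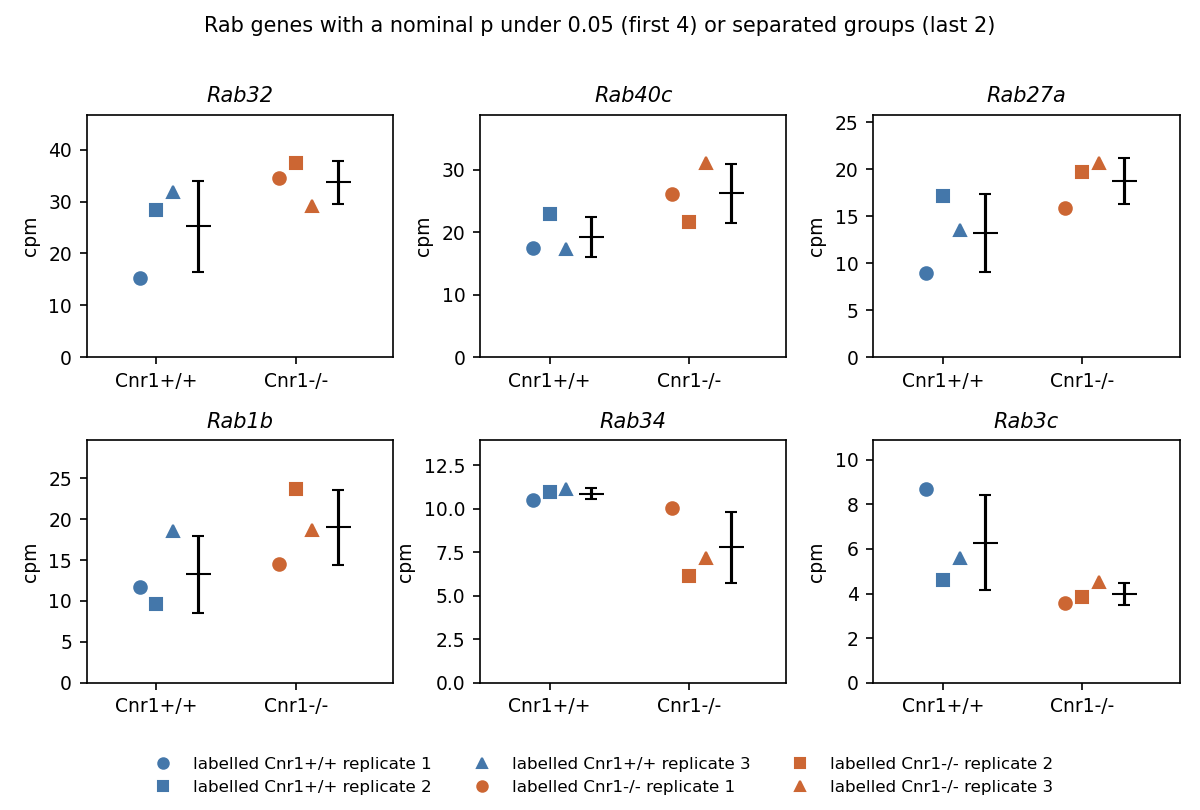
Levels in cpm of the 4 Rab genes with a nominal p below 0.05 (*Rab32*, *Rab40c*, *Rab27a*, *Rab1b*) and of the 2 untested ones whose groups do not overlap (*Rab34*, *Rab3c*), 1 point per library, with the mean and SD of 3 libraries in black; each panel has its own axis from 0. In *Rab32* a single *Cnr1*+/+ library at 15.3 cpm lies below 5 others at 28.4 to 37.4 cpm.

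The 2 Rab genes whose groups did not overlap were both among the 25 below the minimum mean, and in both the libraries labelled *Cnr1*-/- were lower. *Rab34*, a Golgi protein also needed for phagosome maturation, was at 10.5, 10.97 and 11.1 cpm in the controls and at 10.1, 6.15 and 7.16 cpm in the other group. The separation of *Rab34* rested on a gap between 10.5 and 10.1 cpm. *Rab3c*, a gene of regulated exocytosis best known from nerve terminals, was at 8.69, 4.59 and 5.57 cpm against 3.57, 3.82 and 4.53 cpm, with a gap between 4.59 and 4.53 cpm. The two-sided exact permutation p was 0.1 for each, and a limma fit without the minimum gave log2 fold changes of -0.51 and -0.60 with adjusted p-values of 0.954 and 0.957. The sum of neuronal markers was 31.7 to 35.2 cpm in the controls and 33.1 to 37.4 cpm in the other group, and its part in the values of *Rab3c* was not tested.

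The paralogues of a Rab subfamily were mostly present in stable proportions. Shares within a subfamily do not depend on how libraries are scaled, and 17 such shares were computed for the 13 subfamilies with more than 1 listed gene and a summed mean level of at least 10 cpm. A single gene held most of several subfamilies: *Rab7* made up 89.7% to 96.3% of the sum with *Rab7b*, *Rab27a* 90.6% to 100% with *Rab27b*, *Rab39* 93.8% to 100% with *Rab39b*, *Rab40c* 96.6% to 100% with *Rab40b*, and *Rab2a* 84.6% to 88.3% with *Rab2b*. Other subfamilies were divided. *Rab5c* took 48.0% to 51.9% of the Rab5 sum, *Rab5b* 24.8% to 28.8% and *Rab5a* 22.2% to 26.8%. *Rab6a* took 57.8% to 63.2% of the sum with *Rab6b*, and *Rab8a* 48.7% to 54.1% of that with *Rab8b*. *Rab31* took 65.4% to 71.6% of the sum with *Rab22a*. *Rab4b* held 91.1% to 94.9% of the sum with *Rab4a* in 5 libraries and 79.7% in *Cnr1*+/+ replicate 1, where *Rab4a* was at 5.32 cpm against 0.998 to 2.27 cpm elsewhere.

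The share of *Rab1a* in the sum with *Rab1b* was the 1 of 17 in which the groups did not overlap. It was 83.8%, 87.0% and 82.6% in the *Cnr1*+/+ libraries and 82.3%, 76.8% and 79.8% in those labelled *Cnr1*-/-, a difference of -4.79 percentage points. The gap between the groups was that from 82.6% to 82.3%, and the two-sided exact permutation p was 0.1, with 0.85 after Benjamini-Hochberg adjustment over the 17 shares. *Rab11b* held 62.0%, 63.4% and 60.4% of the sum with *Rab11a* in the controls and 56.3%, 61.3% and 57.0% in the other group, with overlap through *Cnr1*-/- replicate 2 (exact permutation p = 0.2). The shares of the Rab3 genes, each measured at under 10 cpm in every library, varied most, with *Rab3a* at 30.2% to 58.3%, *Rab3c* at 25.8% to 51.9% and *Rab3d* at 7.45% to 24.5%.

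**Figure D5:**
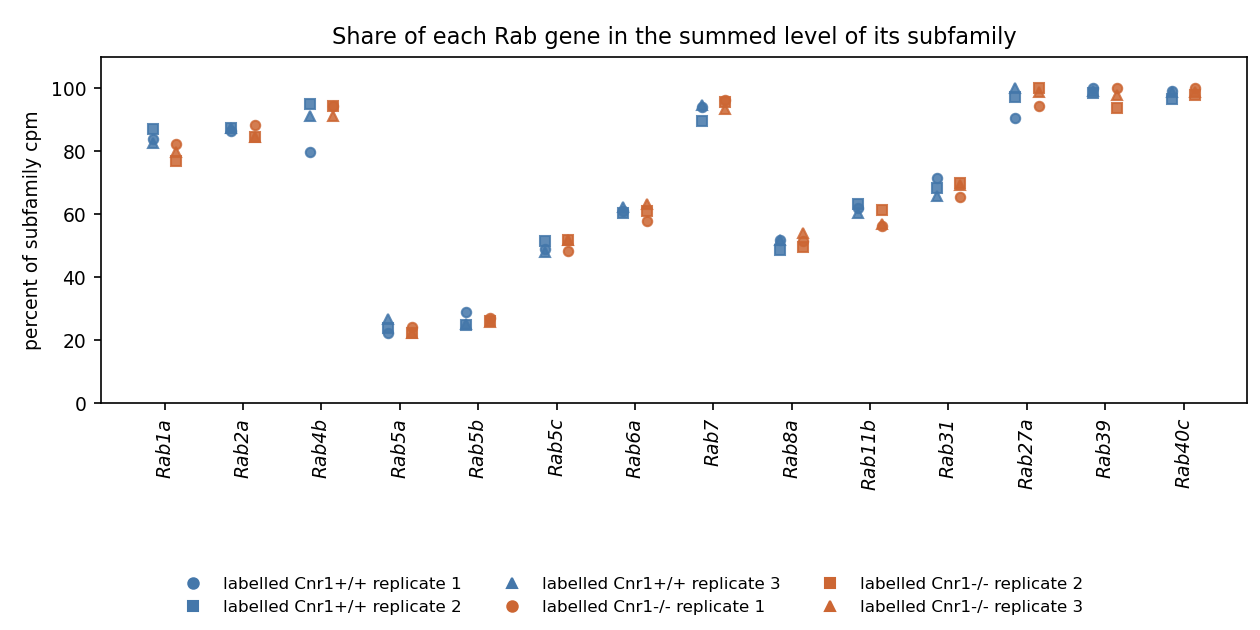
Percent of the summed cpm of a subfamily that falls to the named gene, 1 point per library, for 14 shares of the Rab subfamilies other than Rab3 (the second gene of a 2-gene subfamily holds the rest). *Rab7*, *Rab27a*, *Rab39* and *Rab40c* lie at 89.7% or more in every library, and *Rab1a* is the share whose groups do not overlap.

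The proteins that act on Rab GTPases were read from 4 lists of 155 genes, of which 151 were listed and 100 tested. At a nominal p below 0.05, the libraries labelled *Cnr1*-/- had higher levels of 2 of the 100 and a lower level of 1, beside 6.02% called in either direction among all genes tested, and the smallest adjusted p was 0.792 (limma). The median log2 fold change was 0.06. Among 6 tested genes of prenylation and extraction none was called. *Gdi2*, which extracts Rab proteins from membranes, was the most abundant gene of the 4 lists, at 214, 250 and 281 cpm against 267, 288 and 246 cpm, nearly the level of *Rab14*.

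Of 31 tested exchange factors 1 was called. *Dennd2c*, of the DENN domain family that activates Rab proteins, was at 4.67, 7.78 and 10.5 cpm in the controls and at 11.9, 15.7 and 9.90 cpm in the other group, with a log2 fold change of 0.75 (SE 0.32, limma nominal p = 0.0266, adjusted p = 0.792, two-sided exact permutation p = 0.2). Its groups overlapped, and without *Cnr1*+/+ replicate 1 the log2 fold change was 0.44 and not called. Its mean of 10.1 cpm passed the minimum only through the libraries labelled *Cnr1*-/- (12.5 cpm, against 7.66 cpm in the controls), so that its entry into the test favoured a call in that direction. *Hps4*, of the complex that activates *Rab32*, and *Rin2*, an activator of Rab5 proteins, were the most abundant exchange factors at means of 104 and 101 cpm, with log2 fold changes of 0.13 (SE 0.13) and -0.03 (SE 0.13).

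Of 19 tested GTPase-activating proteins 1 was called, *Tbc1d9*, at 40.5, 36.5 and 40.7 cpm against 48.9, 51.5 and 50.1 cpm in the libraries labelled *Cnr1*-/-. The groups of *Tbc1d9* did not overlap, and its log2 fold change was 0.36 (SE 0.15, limma nominal p = 0.0277, adjusted p = 0.792, two-sided exact permutation p = 0.1). The call of *Tbc1d9* was lost on leaving out *Cnr1*+/+ replicate 2 or any 1 library labelled *Cnr1*-/-, with log2 fold changes of 0.30 to 0.37. *Rab3gap1*, the most abundant gene of that list at a mean of 47.1 cpm, had a log2 fold change of 0.15 (SE 0.15). Of 44 tested effectors and kinases 1 was called. *Bicd2*, the dynein adaptor that binds Rab6 proteins, was at 57.3, 56.9 and 64.3 cpm against 47.1, 50.3 and 45.6 cpm, lower in all 3 libraries labelled *Cnr1*-/- than in any control. Its log2 fold change was -0.32 (SE 0.15, limma nominal p = 0.0387, adjusted p = 0.809, two-sided exact permutation p = 0.1). The call of *Bicd2* was lost without *Cnr1*+/+ replicate 3 (-0.26), *Cnr1*-/- replicate 1 (-0.31) or *Cnr1*-/- replicate 3 (-0.29). *Mlph*, a partner of *Rab27a* in organelle transport along actin, had a mean of 52.3 cpm and a log2 fold change of 0.27 (SE 0.15, limma adjusted p = 0.839), and did not pass the test.

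The steep ladder of levels was set beside the promoters. RefSeq promoter sequences on GRCm38.p6 were matched to 44 of the 53 genes, and the 250 bases before the start of transcription were read. The median number of CG dinucleotides in this window was 20.5 for 26 genes at 10 cpm or more and 10.5 for 18 below, against 6 for all 27025 promoters. These 27025 were not filtered by level or gene type, so they are a set unlike the protein-coding Rab genes. The word GGGCGG, the core of the GC box, was found on either strand in 76.9% of the promoters of genes at 10 cpm or more and in 61.1% of those below, against 32.9% of all promoters. The word CCAAT was found in 61.5% and 27.8%, against 34.5%, the E-box word CACGTG in 9.09% of all 44 against 6.05%, and GAGGAAGT, a core recognised by the myeloid factor PU.1, in 4.55% (2 genes, *Rab32* and *Rab2b*) against 2.44%. With both strands searched, the GC box and CCAAT words can overlap at their ends, and a match describes the sequence alone. The promoters of the 2 most abundant Rab genes, of *Rab32* and of *Rab39b*, a gene at 0.246 cpm on average, are given 5′ to 3′ on the strand of the gene with these words, on either strand, in capitals.

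*Rab14* (chr2:35201121-35201370, minus strand): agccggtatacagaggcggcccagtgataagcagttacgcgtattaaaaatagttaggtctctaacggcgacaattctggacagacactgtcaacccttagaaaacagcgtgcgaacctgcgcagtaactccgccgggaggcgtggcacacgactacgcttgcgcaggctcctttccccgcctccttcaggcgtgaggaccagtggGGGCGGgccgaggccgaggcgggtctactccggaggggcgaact
*Rab10* (chr12:3309970-3310219, minus strand): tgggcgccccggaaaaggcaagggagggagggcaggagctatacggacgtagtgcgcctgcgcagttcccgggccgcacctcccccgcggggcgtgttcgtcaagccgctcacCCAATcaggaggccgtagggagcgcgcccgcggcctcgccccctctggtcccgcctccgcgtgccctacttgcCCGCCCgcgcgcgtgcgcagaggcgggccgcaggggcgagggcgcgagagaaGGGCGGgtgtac
*Rab32* (chr10:10558208-10558457, minus strand): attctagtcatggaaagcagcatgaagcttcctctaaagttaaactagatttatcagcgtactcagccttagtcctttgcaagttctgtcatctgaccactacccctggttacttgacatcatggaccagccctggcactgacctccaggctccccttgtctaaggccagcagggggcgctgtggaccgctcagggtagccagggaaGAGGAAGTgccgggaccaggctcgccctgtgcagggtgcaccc
*Rab39b* (chrX:75578232-75578481, minus strand): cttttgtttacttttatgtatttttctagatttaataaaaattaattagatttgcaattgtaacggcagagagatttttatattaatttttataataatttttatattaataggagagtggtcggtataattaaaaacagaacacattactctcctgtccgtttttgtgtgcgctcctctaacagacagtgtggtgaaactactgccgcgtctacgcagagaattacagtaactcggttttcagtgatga

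The window of *Rab10* held 34 CG dinucleotides with a GC content of 74.8%, and that of *Rab14* held 23 with 60.0%. The window of *Rab32* held 5, below the median of all promoters, and no GC box, but carried GAGGAAGT close to the start, and that of *Rab39b* held 8 with a GC content of 31.6% and no capital at all. The levels of these genes were 106, 268, 29.5 and 0.246 cpm. The 4 windows are examples, and other genes differed from them. *Rab11b*, at a mean of 52.2 cpm, had 9 CG dinucleotides and no GC box, while *Rab15*, at 2.99 cpm, had 27 and a GC box. A link between promoter sequence and level was not tested.

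Exact stretches of 50 bases told most members apart from other genes. In the last 500 bases of their transcripts, 42 of the 53 genes (21 of the 28 tested) shared no stretch of 50 bases with any other gene. No pair of Rab genes shared one. The authors' alignment allowed mismatches, and whether reads of paralogues were shared under it was not tested. *Rab4b* shared 98.7% of its stretches with *Gm21983*, and *Rab43* 49.1% with *Gm45140*, which makes the levels of both uncertain. The spans of 17 Rab genes overlapped another listed gene, for 12 on the opposite strand and for 6 on the same strand, and 9 of the 17 were tested, *Rab24* with *Prelid1* and *Rab6a* with *Mrpl48* among them.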

How the data were processed

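RNA of CD11b+ cells was sequenced with QuantSeq 3′ mRNA-seq (FWD), 1 library per mouse. Per the labels and methods, the authors aligned reads to mm10 with STAR in Partek and quantified genes by expectation maximisation. They deposited TMM-scaled CPM values, in which listed genes take 50.1% to 59.1% of a library's scaled total. Between 84.2% and 86.4% of low values were whole multiples of 1 read (tolerance 0.01), too few for a count test. Samples were grouped by their titles.

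limma 3.58.1 in R 4.3.3 (lmFit, eBayes with a trend) was fitted to log2(CPM + 0.1) of the 6659 genes averaging 10 or more, on genotype alone, with two-sided Benjamini-Hochberg adjusted p-values. Fold changes are on that scale, which understates those of low genes. The limma p-values set the difference between 3 mice and 3 mice against a spread that is moderated by a trend over all genes tested. Shares were compared with exact permutation tests. The fit was also run on simulated data, the outcome of which is not reported here. Alternatives were a pseudocount of 1, no minimum, a minimum of 20, centring, quantile normalisation, voom weights, no trend, a replicate block and each library left out.

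Rab genes were named when called, when their groups did not overlap, when among the 3 most abundant of a compartment or the 5 with the largest fold change, or as members of a subfamily. Pathway genes were named when called or among the 2 most abundant of a list, of which 1 is not reported here. Other Rab genes, such as *Rab18*, *Rab21*, *Rab35*, *Rab43* and those under 1 cpm, are named after their values were seen. The members, lists and rules were chosen with earlier results of these data known. Gene coordinates are 1-based on mm10. Promoters are from RefSeq on GRCm38.p6 and transcript ends from GENCODE vM21.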

Additional observations from a re-analysis of the deposited data

How the results depend on the processing

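No Rab gene reached an adjusted p below 0.1 with a fold change over 1.5 under any alternative tried, and the median log2 fold change of the tested Rab genes stayed above 0 under all of them (0.04 to 0.18). The count of 4 Rab genes with a nominal p below 0.05 held with a pseudocount of 1 and without a minimum, and was 2 with a minimum mean of 20, 2 with limma voom, 2 without a trend, and 0 with libraries centred on their median or quantile normalised. Over all genes tested, 401 of 6659 were called in the main fit and 401 with a pseudocount of 1. The number was 993 of 19225 without a minimum and 263 of 4126 with a minimum of 20. It was 408 with limma voom, 391 without a trend, 375 with centring and 360 with quantile normalisation. Leaving out 1 library in turn gave 1 to 5 such genes, with 5 (*Rab11a*, *Rab12*, *Rab1b*, *Rab27a*, *Rab32*) without *Cnr1*+/+ replicate 3, 3 (*Rab27a*, *Rab32*, *Rab40c*) without *Cnr1*+/+ replicate 2, 1 (*Rab11a*) without *Cnr1*+/+ replicate 1, 2 (*Rab1b*, *Rab27a*) without *Cnr1*-/- replicate 1, 2 (*Rab11a*, *Rab40c*) without *Cnr1*-/- replicate 2 and 1 (*Rab32*) without *Cnr1*-/- replicate 3. Over all genes tested, the number called also moved, from 251 of 6583 without *Cnr1*-/- replicate 2 to 600 of 6614 without *Cnr1*+/+ replicate 3. The count of 3 pathway genes was 7 without a minimum (more genes are then tested), 1 with quantile normalisation, and 1 to 8 with a library left out. Over all genes tested, these settings called 993, 360 and 251 to 600. A minimum of 20 takes *Rab1b* and *Rab27a*, at means of 16.1 and 16.0 cpm, out of the test. The cause of the other changes was not tested.

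The median log2 fold change of the ER-Golgi genes went from 0.06 to -0.0125 with centring and -0.0286 with quantile normalisation, and ranged from 0.02 (without *Cnr1*-/- replicate 2) to 0.13 with a library left out. Centring and quantile normalisation gave 0.06 and 0.05 for the early endosome, 0.07 and 0.05 for recycling, 0.13 and 0.11 for the late endosome, 0.01 and 0.0068 for secretory genes and 0.24 and 0.23 for genes placed elsewhere. Leaving out 1 library gave 0.03 to 0.14 for secretory genes. Other medians of compartments moved for the late endosome to 0.34 with a minimum of 20, which drops *Rab39*, for the genes placed elsewhere to 0.0498 without a minimum, which adds 5 genes, and for recycling over 0.10 to 0.25 with a library left out. With centring and with quantile normalisation, 10 of the 28 log2 fold changes were below 0. Among the genes described singly, the values that turned, with centring and with quantile normalisation in this order, were -0.000389 and -0.0144 for *Rab10*, -0.00461 and -0.0240 for *Rab1a*, -0.0125 and -0.0286 for *Rab2a*, -0.0666 and -0.0838 for *Rab6a*, and -0.0324 and -0.0349 for *Rab8b*. With a library left out, the log2 fold change of *Rab12* ranged from 0.0854 (without *Cnr1*+/+ replicate 1) to 0.370 (without *Cnr1*+/+ replicate 3), that of *Rab10* from 0.0193 to 0.124, of *Rab11b* from 0.0320 to 0.169 and of *Rab31* from 0.0828 to 0.271. *Rab1a* ranged from -0.0350 to 0.235, *Rab6a* from -0.170 to 0.146 and *Rab8b* from -0.0895 to 0.145. The range was 0.0310 to 0.173 for *Rab8a*, 0.0188 to 0.106 for *Rab2a*, 0.106 to 0.240 for *Rab24* and -0.302 to -0.112 for *Rab39*. Differences in paralogue shares that changed sign with a library left out ranged, in percentage points, from -4.59 to 3.95 for *Rab3d*, -0.729 to 1.31 for *Rab5b*, -1.78 to 0.919 for *Rab6a*, -0.0872 to 2.09 for *Rab8a*, -1.80 to 1.12 for *Rab31*, -0.892 to 3.80 for *Rab27a* and -0.114 to 1.20 for *Rab40c*. That of *Rab1a* ranged from -6.14 to -3.39.

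With the replicate number as a block, the same 4 Rab genes and 6 pathway genes were called, beside 421 of all 6659 genes tested. The numbers were not taken as a pairing, since deviations of libraries with equal numbers had correlations of -0.0557 to -0.0308 and 0 of 6 libraries correlated best with the library of their own number.

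Depth limits the 25 Rab genes under 10 cpm most, as 1 read is worth about 0.1 cpm. With 3 mice per label, the 95% intervals of 8 of the 28 tested genes reached past 1.5-fold.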
